A study of Mus musculus with 20 samples.

Results

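Neutrophils sorted on the surface marker Gr-1 were compared with KSL cells, a comparison that spans granulocyte development from the stem-enriched fraction to the granulocyte. Arrays were assigned by the cell named in each sample's title: 2 Neutrophil arrays and 2 KSL arrays, 4 of the series' 20 arrays, which cover 10 sorted haematopoietic populations. All cells came from mice of the C57BL/6 background and carried no stated treatment or mutation. Total RNA equivalent to 3000 cells was amplified in 2 cycles and hybridised to Affymetrix Mouse Genome 430 2.0 arrays. KSL is the usual name for cells that carry c-Kit and Sca-1 and lack markers of mature lineages, a fraction enriched in stem cells and multipotent progenitors. The labels do not spell the name out. The tissue, the age and number of the animals, the antibody clones and the full gates are not stated in the labels. Common Gr-1 antibodies bind Ly6G on neutrophils and also Ly6C, which monocytes carry, so the label does not by itself fix the purity of the sort. The labels call the arrays of a population biological replicates without naming animals, and p-values measure the spread between arrays only.

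Neutrophils arise from stem and progenitor cells through dividing precursors that load their granules in waves. Primary granules, with myeloperoxidase and the serine proteases, are made at the promyelocyte stage. Secondary and tertiary granules, with lactoferrin, cathelicidin and the matrix metalloproteinases, are made later, as division ends. The mature cell keeps granule proteins whose transcripts it may no longer make, moves by chemoattractant receptors and integrins, and kills microbes with the NADPH oxidase.

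Values below are the probe set intensities as deposited, in which each array already had a mean of 100 once its extreme 2% at either end was left out. Differences are Neutrophil minus KSL on the scale log2(intensity + 6.75), given with limma's standard error. The added constant, the 25th percentile of all values, makes differences of dim genes smaller than they are, and the files hold no detection calls, so an intensity of a few units cannot be told from background. A gene was called higher or lower at an adjusted p under 0.05 over all 14044 genes tested and a log2 difference of at least 1.

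The replicate arrays correlated across the 14044 genes at r = 0.961 for Neutrophil and 0.966 for KSL, and Neutrophil arrays with KSL arrays at 0.653 to 0.687. The share of genes whose replicates differed by 1 or more on the log2 scale was 11.1% in Neutrophil and 6.64% in KSL. The 3′ to 5′ ratio of the Gapdh control probe sets was 2.48 and 2.36 on the Neutrophil arrays, against 4.81 and 3.43 on the KSL arrays, and its part in the results was not tested. The KSL arrays were unlike each other for stress and early response genes: Fos measured 5896 on KSL array 1 and 80.3 on KSL array 2. Fewer cells of a type in a sort and less RNA per cell cannot be told apart in these bulk samples.

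The label was checked against 4 markers. Camp, the cathelicidin precursor of secondary granules, measured 13475 and 10936 on the Neutrophil arrays and 1.25 and 2.25 on the KSL arrays. Mmp8, the neutrophil collagenase, measured 11196 and 9588 on the Neutrophil arrays, against 24.5 and 12.7 on the KSL arrays. Cxcr2, the receptor through which neutrophils follow CXC chemokines, measured 1659 and 1298 on the Neutrophil arrays and 6.93 and 4.51 on the KSL arrays. These 3 genes had high values on both Neutrophil arrays and low ones on both KSL arrays, with no overlap. Mpo, which encodes the myeloperoxidase of primary granules, went the other way, with 69.5 and 502 on the Neutrophil arrays, against 4959.6 and 2365 on the KSL arrays, a difference of -4.12 ± 0.53 (limma, adjusted p = 1.9e-06). Among 5 markers of the KSL fraction (Kit, Cd34, Flt3, Meis1 and Hoxa9), all 5 were lower in Neutrophil. Their summed intensity was 190 and 251 on the Neutrophil arrays and 6206 and 7687 on the KSL arrays.

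Of 14044 genes tested, 5832 were called (41.5%): 2045 were higher in Neutrophil (14.6%) and 3787 were lower (27%). The counts of every gene list against KSL below are to be read beside these shares. The median difference over all genes was -0.16, with quartiles of -1.17 and 0.60. The highest differences lay on the Neutrophil side: 128 called genes were higher by 5 or more on the log2 scale and 81 were lower by as much. At a difference of 3 or more the balance turned, with 405 genes higher and 766 lower. The Neutrophil and KSL arrays did not overlap for 4501 of the 14044 genes on the higher side and 6021 on the lower side. Lack of overlap, wherever it is stated, thus does not by itself mark a gene out.

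**Figure D1:**
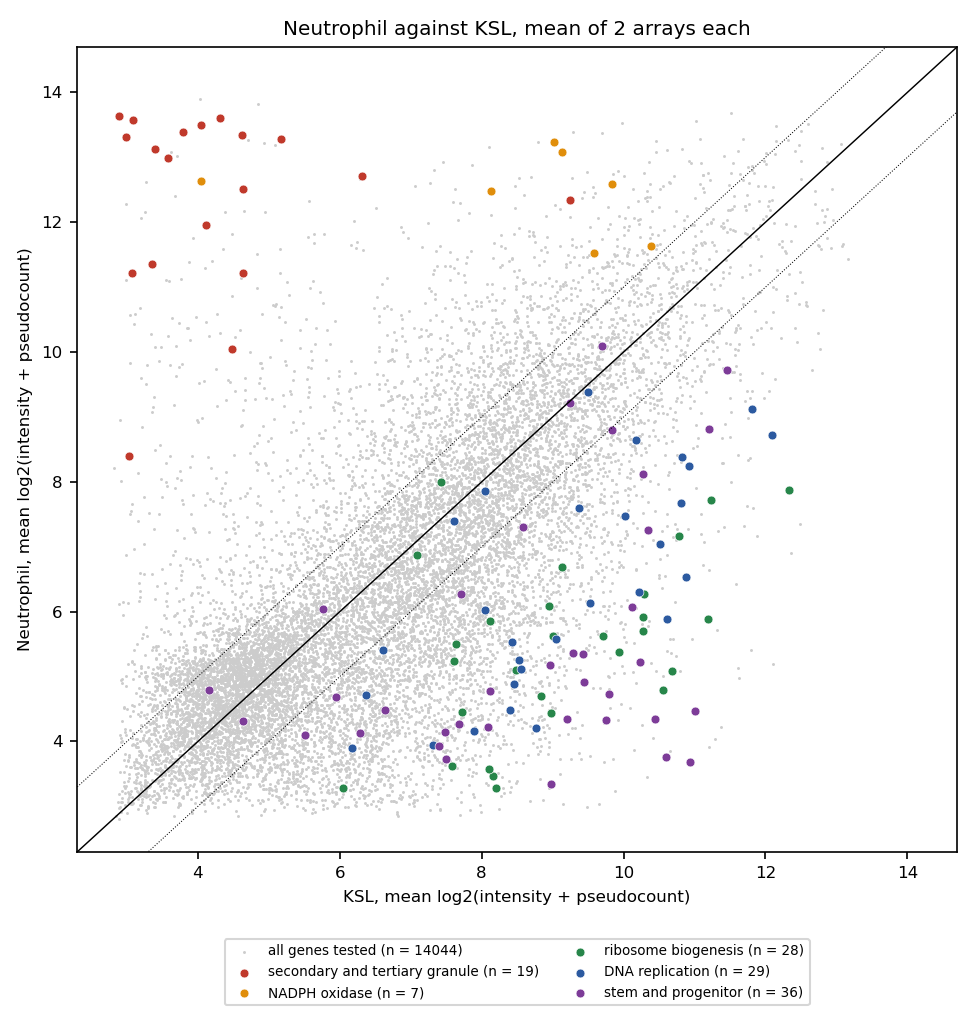
Mean log2(intensity + pseudocount) of 2 Neutrophil arrays (vertical) against that of 2 KSL arrays (horizontal) for the 14044 genes tested, 1 point per gene, with a solid line at equality, dotted lines at a difference of 1 and 5 gene lists in colour. The 19 secondary and tertiary granule genes and the 7 NADPH oxidase genes lie above the upper dotted line, while most stem, replication and ribosome biogenesis genes lie below the lower one.

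Genes of the secondary and tertiary granules made up most of the largest rises. Lcn2, which encodes the siderophore-binding lipocalin of secondary granules, measured 13690.1 and 11807 on the Neutrophil arrays and 0.93 and 0.416 on the KSL arrays and had the largest difference of all genes tested, 10.74 ± 0.78 (limma, adjusted p = 1.1e-09). It was followed by Camp (10.48 ± 0.99), the chitinase-like gene Chil3 (10.33 ± 1.28), S100a9 (9.88 ± 0.93), Wfdc21 (9.74 ± 0.53) and Ltf (9.60 ± 0.56), which encodes lactoferrin. The remaining 6 of the 12 largest rises were Slfn4, Mmp9, Cd177, Chil1, Lgals3 and Ngp, from 9.46 ± 0.58 to 9.30 ± 0.93. Slfn4, a Schlafen gene induced by interferon in myeloid cells, measured 8849 and 8478 on the Neutrophil arrays, against 3.5 and 7.94 on the KSL arrays. Lgals3, which encodes the lectin galectin-3, measured 9034 and 7566 on the Neutrophil arrays and 1.92 and 12.7 on the KSL arrays. All 12 were bright on both Neutrophil arrays and in single or low double digits on both KSL arrays.

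The largest falls were in genes of unlike functions. Dntt, which encodes the terminal transferase of early lymphoid progenitors, measured 2.6 and 17.8 on the Neutrophil arrays, against 2864 and 1917 on the KSL arrays, a difference of -7.28 ± 0.63 (limma, adjusted p = 1.2e-08). Cd34, the sialomucin used to sort progenitors, measured 10.1 and 3.05 on the Neutrophil arrays and 1785 and 2149 on the KSL arrays, with a difference of -7.25 ± 0.50. F2r, the thrombin receptor, measured 19.2 and 6.81 on the Neutrophil arrays, against 3051 and 2277 on the KSL arrays. These 3 genes were in single or low double digits on both Neutrophil arrays and bright on both KSL arrays. The other 9 of the 12 largest falls were Ctla2a, Tsc22d1, Aff3, Sox4, Bex1, Hadh, Jakmip1, Tspan4 and Hoxa9, with differences between -6.53 ± 0.63 for Hoxa9, a homeobox factor of stem and progenitor cells, and -7.25 ± 0.31 for Ctla2a. Hadh, a mitochondrial enzyme of fatty acid oxidation, measured 9.02 and 56.3 on the Neutrophil arrays and 3282 and 3065 on the KSL arrays. Jakmip1 had 4 probe sets above the filter, 2 of which pointed the opposite way, and its difference is that of the brightest of them. All probe sets of Dntt, Sox4 and Hoxa9 above the filter fell, but the smallest falls were -2.54, -0.096 and -1.49.

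The secondary and tertiary granule list held 20 names, of which 19 had a probe set of their own, and all 19 were called higher, against 14.6% of all genes. The median difference was 8.14, where that of all genes was -0.16. Every member stayed called when any 1 of the 4 arrays was left out. Ngp, the neutrophilic granule protein, measured 14298 and 10917 on the Neutrophil arrays, against 9.97 and 16.7 on the KSL arrays, with a difference of 9.30 ± 0.93. Olfm4, which marks a subset of neutrophils through its olfactomedin protein, measured 2114 and 2653 on the Neutrophil arrays and 0.973 and 2.38 on the KSL arrays, a difference of 8.14 ± 0.51. Adam8, a metalloproteinase of granule membranes, measured 2366 and 2373 on the Neutrophil arrays, against 21.8 and 14.8 on the KSL arrays, a difference of 6.58 ± 0.30. No array of one population reached the values of the other in these 3 genes. The smallest rise of the list was that of Cnn2, an actin-binding calponin, with 5598 and 4768 on the Neutrophil arrays and 595 and 608 on the KSL arrays and a difference of 3.09 ± 0.17. Cnn2 was clearly measured in KSL, unlike 7 members whose values on both KSL arrays lay under the added constant. The size of the differences of those 7 depends on that constant.

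Promoter windows are shown for granule genes that moved together, because C/EBP factors are known regulators of granule genes. The windows are the 250 bases before the RefSeq gene start in GRCm38.p6, written 5′ to 3′ on the gene's strand, with capitals at matches to the C/EBP-type motif TTGCNNAA, searched on both strands. Of the 19 secondary and tertiary granule genes 15 had windows, 16 in all, and 7 of the 16 (43.8%) held a match, against 9.56% of all 32851 windows. In the primary granule list, 7 of 8 genes had windows, 8 in all, and 0 of these held a match, with Mpo and Elane among them. The windows of Ngp (chr9:110419558-110419807, plus strand), Ltf (chr9:111019042-111019291, plus strand), Mmp8 (chr9:7558179-7558428, plus strand) and Lcn2 (chr2:32387740-32387989, minus strand) are those with a match among the strongest risers.
Ngp: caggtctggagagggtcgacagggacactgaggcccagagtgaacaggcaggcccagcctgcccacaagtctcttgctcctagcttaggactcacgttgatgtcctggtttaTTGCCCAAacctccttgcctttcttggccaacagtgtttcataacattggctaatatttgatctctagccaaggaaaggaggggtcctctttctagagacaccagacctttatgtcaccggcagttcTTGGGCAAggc
Ltf: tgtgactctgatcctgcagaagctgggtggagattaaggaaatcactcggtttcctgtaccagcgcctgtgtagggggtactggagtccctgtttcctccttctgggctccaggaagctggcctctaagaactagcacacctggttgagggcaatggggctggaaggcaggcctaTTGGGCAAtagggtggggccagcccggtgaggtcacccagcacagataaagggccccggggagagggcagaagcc
Mmp8: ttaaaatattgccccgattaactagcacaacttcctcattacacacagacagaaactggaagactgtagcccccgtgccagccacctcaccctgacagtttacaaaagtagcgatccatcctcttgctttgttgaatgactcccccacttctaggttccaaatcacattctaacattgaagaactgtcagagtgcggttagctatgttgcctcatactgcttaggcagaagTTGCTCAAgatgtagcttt
Lcn2: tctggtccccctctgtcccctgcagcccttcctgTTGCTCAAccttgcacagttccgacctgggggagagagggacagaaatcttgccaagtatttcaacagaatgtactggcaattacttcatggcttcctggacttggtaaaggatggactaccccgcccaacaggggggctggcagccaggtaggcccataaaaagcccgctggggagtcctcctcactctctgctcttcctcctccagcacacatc
The Ngp window held 2 matches, at 138 and 11 bases before the start. In Mmp8 the match lay 19 bases before the start, in Ltf 75 and in Lcn2 216. The other genes with a match were Fcnb, Slpi and Adam8. The Camp window (chr9:109849457-109849706, minus strand) held none, although Camp had the next largest rise after Lcn2. A match is a run of letters and was not tested as a binding site.

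Primary granule genes did not share this pattern: of 8 tested, 2 were higher, 3 were lower and 3 were not called, with a median of -0.69, where 14.6% of all genes were higher and 27% lower. That median was -0.14 without Neutrophil array 1, -1.39 without Neutrophil array 2, -0.07 without KSL array 1 and -1.43 without KSL array 2. Prtn3, which encodes proteinase 3, measured 103 and 295 on the Neutrophil arrays, against 2770.0 and 1701 on the KSL arrays, a difference of -3.58 ± 0.57 (limma, adjusted p = 2.8e-05). Ctsg, which encodes cathepsin G, measured 63 and 140.2 on the Neutrophil arrays and 1767 and 462 on the KSL arrays, a difference of -3.17 ± 0.55. With Mpo these are the 3 genes that fell, and their arrays did not overlap. Elane, the neutrophil elastase gene, measured 33.6 and 233 on the Neutrophil arrays, against 432 and 51.4 on the KSL arrays. Its arrays overlapped and it was not called, with a difference of -0.70 ± 0.77 (limma, adjusted p = 0.48). Without KSL array 2 the Elane difference became -2.16 and passed the threshold, while without Neutrophil array 1 it was 0.59 and without KSL array 1 it was 0.76.

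The genes that rose in this list encode no enzyme of the granule. Serpinb1a, which encodes an inhibitor of neutrophil serine proteases, measured 5688 and 5939 on the Neutrophil arrays and 1047 and 1198 on the KSL arrays, a difference of 2.37 ± 0.26. Ms4a3, a membrane protein gene of granulocyte and monocyte progenitors, measured 196 and 369 on the Neutrophil arrays, against 158 and 57.3 on the KSL arrays, a difference of 1.43 ± 0.36, and lost its call without Neutrophil array 2 (0.98) or without KSL array 2 (0.75). Ctsc, whose protease activates the granule serine proteases, measured 371 and 430.1 on the Neutrophil arrays and 654 and 643 on the KSL arrays and was not called. In LinNeg, the cells sorted as lacking lineage markers, Mpo averaged 6797 ± 337, Prtn3 3355 ± 36.4 and Elane 2262 ± 408 (SD, n = 2 each). On Neutrophil array 2 the primary granule genes were higher than on array 1 in 7 of 8 cases, by a median of 0.98 on the log2 scale. KSL array 1 was above KSL array 2 in 7 of 8 as well, by a median of 0.88.

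**Figure D2:**
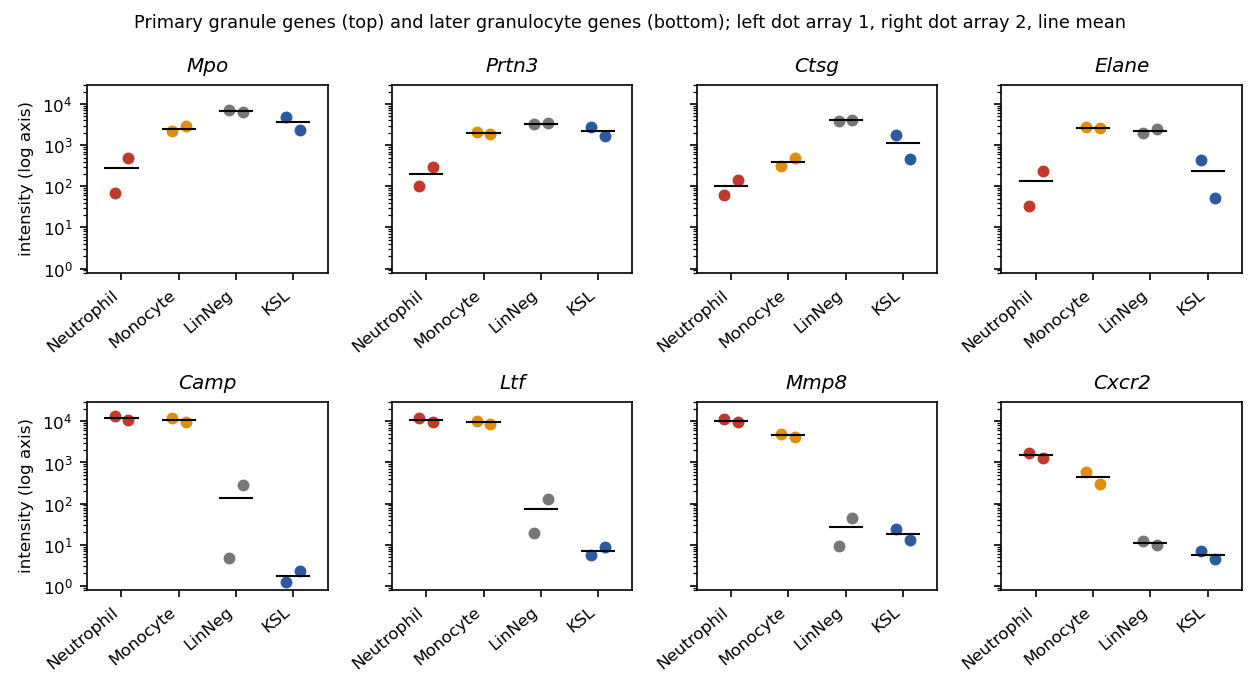
Intensity (log axis) on each array of Neutrophil, Monocyte, LinNeg and KSL for 4 primary granule genes (top) and 4 later granulocyte genes (bottom), with a line at the mean of 2 arrays. Mpo, Prtn3 and Ctsg are lower on both Neutrophil arrays than on both KSL arrays, Elane overlaps, and Camp, Ltf, Mmp8 and Cxcr2 are higher on both Neutrophil arrays than on both KSL arrays.

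Receptors that guide neutrophils rose broadly. Of 17 chemoattractant and cytokine receptor genes tested, 14 were higher and 3 were not called, with a median of 3.27. Fpr2, a formyl peptide receptor that senses bacterial and mitochondrial peptides, measured 10167 and 8921 on the Neutrophil arrays, against 22 and 25.9 on the KSL arrays, a difference of 8.28 ± 0.40 (limma, adjusted p = 8e-12). Ccr1, a receptor of CC chemokines, measured 3446 and 2735 on the Neutrophil arrays and 14.1 and 13.2 on the KSL arrays, a difference of 7.23 ± 0.59. Ltb4r1, the leukotriene B4 receptor gene, measured 2449 and 2327 on the Neutrophil arrays, against 28.1 and 29.7 on the KSL arrays, a difference of 6.07 ± 0.32. All 3 were low on both KSL arrays and bright on both Neutrophil arrays. Csf3r, the receptor for the granulocyte growth factor G-CSF, measured 3511 and 2723 on the Neutrophil arrays and 263 and 377 on the KSL arrays, a difference of 3.27 ± 0.54. It was thus in triple digits in KSL, and so was Csf2rb, the shared signalling chain for IL-3, IL-5 and GM-CSF, with 2375 and 2296 on the Neutrophil arrays, against 211 and 206 on the KSL arrays. Cxcr4, which holds neutrophils in the marrow, measured 499.9 and 547 on the Neutrophil arrays and 123 and 133 on the KSL arrays and rose by 1.97 ± 0.17. The 3 genes not called were Ccr2, Ifngr1 and C3ar1. Ccr2, the monocyte chemokine receptor, measured 24.6 and 34.9 on the Neutrophil arrays, against 56.9 and 21.9 on the KSL arrays, with overlapping arrays.

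All 22 tested genes of the pattern recognition and Fc receptor list were called higher, with a median of 5.23, and all 22 stayed called without any 1 array. The list holds adaptors as well as receptors, and its member Pglyrp1 is also in the secondary and tertiary granule list. Clec4a2, an inhibitory C-type lectin gene, measured 4302 and 4277 on the Neutrophil arrays and 2.1 and 2.76 on the KSL arrays, a difference of 8.87 ± 0.70 (limma, adjusted p = 3.3e-09). Fcgr3, a low-affinity receptor for IgG, measured 3366 and 2491 on the Neutrophil arrays, against 26.6 and 17.6 on the KSL arrays, a difference of 6.67 ± 0.39. Tlr2, a receptor for bacterial lipoproteins, measured 1949.5 and 1376 on the Neutrophil arrays and 73.1 and 92.9 on the KSL arrays, a difference of 4.20 ± 0.27. The arrays of the populations did not overlap in these genes, as was so for most genes tested. The adaptor genes among the 22, through which such receptors signal, included Tyrobp and Myd88. Tyrobp (DAP12) measured 10180.0 and 8168 on the Neutrophil arrays, against 319 and 226 on the KSL arrays, and Myd88, the adaptor of Toll-like receptors, measured 1089 and 914 on the Neutrophil arrays and 164 and 176 on the KSL arrays, differences of 5.05 ± 0.44 and 2.51 ± 0.29. The smallest rise was that of Nlrp3, an inflammasome sensor gene, at 1.69 ± 0.36.

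Adhesion and migration genes were mixed, with 12 of 17 higher, 2 lower and 3 not called (median 2.21). Itgam, the alpha chain of Mac-1, measured 814 and 720.1 on the Neutrophil arrays, against 4.67 and 0.563 on the KSL arrays, a difference of 6.40 ± 0.56 (limma, adjusted p = 1.2e-08). Itgb2, its beta chain, measured 7969 and 6362 on the Neutrophil arrays and 175 and 135 on the KSL arrays, a difference of 5.47 ± 0.20. Both chains were thus far higher on both Neutrophil arrays. Icam1, a ligand of these integrins, fell, with 4.72 and 16.1 on the Neutrophil arrays, against 208 and 282 on the KSL arrays and a difference of -3.94 ± 0.37. Itga4, the alpha chain of VLA-4 that holds progenitors in the marrow, fell as well, with 168 and 194 on the Neutrophil arrays and 526 and 483 on the KSL arrays and a difference of -1.45 ± 0.20.

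The NADPH oxidase, which makes superoxide in the phagosome, was higher in all 7 of its tested genes (median 3.95). Cybb, the catalytic gp91phox subunit, measured 6444 and 6254 on the Neutrophil arrays, against 9.62 and 9.77 on the KSL arrays, a difference of 8.59 ± 0.46 (limma, adjusted p = 2e-11). Cyba, its membrane partner p22phox, measured 9184 and 8168 on the Neutrophil arrays and 508 and 605 on the KSL arrays, a difference of 3.95 ± 0.15. Of the cytosolic subunits, Ncf1 (p47phox) measured 10492 and 8896 on the Neutrophil arrays, against 482 and 542 on the KSL arrays, a difference of 4.22 ± 0.32. Cybb was in single digits in KSL, whereas the other 6 genes were already in triple digits or above there. The small GTPase genes of the complex showed the smallest rises: Rac2 2.75 ± 0.18, Rac1 1.95 ± 0.13 and Rap1a 1.26 ± 0.14.

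Of 10 S100 and cystatin genes, 6 were higher, 2 were lower and 2 were not called (median 3.07). The median was 1.22 over the 9 genes left without probe sets that the platform marks as shared between transcripts. S100a8, the calprotectin partner of S100a9, measured 15234 and 13895 on the Neutrophil arrays and 14.6 and 31.7 on the KSL arrays, a difference of 8.99 ± 1.11. Stfa2l1, a stefin gene of the mouse, measured 2367 and 2092 on the Neutrophil arrays, against 2.72 and 12.5 on the KSL arrays, a difference of 7.37 ± 0.47. Stefin genes are near-identical copies, and its probe set may bind several of them. S100a10, the annexin A2 partner, was lower, with 72.1 and 27.8 on the Neutrophil arrays and 798 and 766 on the KSL arrays and a difference of -3.92 ± 0.39. Cst7, which encodes cystatin F, was also lower, at -3.31 ± 0.48. S100a4 measured 44.3 and 51.1 on the Neutrophil arrays, against 48.2 and 68.9 on the KSL arrays and was not called.

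Among 18 transcription factor genes of granulocytes, 11 were higher, 1 was lower and 6 were not called (median 2.64). Cebpd, a C/EBP factor of late granulopoiesis, measured 3826 and 3385 on the Neutrophil arrays and 60.6 and 37.9 on the KSL arrays, a difference of 6.04 ± 0.39 (limma, adjusted p = 2.3e-10). Cebpb, the C/EBP factor of emergency granulopoiesis, measured 1304 and 1621 on the Neutrophil arrays, against 66.2 and 22 on the KSL arrays, a difference of 5.0 ± 0.39. Spi1, which encodes the myeloid factor PU.1, measured 1117 and 934 on the Neutrophil arrays and 130.2 and 156 on the KSL arrays, a difference of 2.78 ± 0.23. The values of these 3 genes did not overlap. Cebpa, the C/EBP factor of myeloid commitment, measured 87 and 47 on the Neutrophil arrays, against 100.4 and 81.4 on the KSL arrays and was not called (-0.45 ± 0.37). Gfi1, a repressor needed for granulopoiesis, measured 191 and 299 on the Neutrophil arrays and 129 and 133 on the KSL arrays and was not called either (0.84 ± 0.30). Irf8, which favours the monocyte over the granulocyte fate, was the member that fell, with 63 and 68.4 on the Neutrophil arrays, against 673 and 225 on the KSL arrays and a difference of -2.46 ± 0.45.

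Values in this list depended on KSL array 1 or 2 where early response genes were concerned, and the list median was 1.36 without KSL array 2 and 3.71 without KSL array 1. Fos measured 6577 and 7404 on the Neutrophil arrays and 5896 and 80.3 on the KSL arrays and was not called at 3.28 ± 1.76, but without KSL array 1 its difference was 6.33 and was called. Junb measured 461 and 386 on the Neutrophil arrays, against 213 and 27.2 on the KSL arrays. Its call (2.31 ± 0.77) was lost without KSL array 2 (0.96) and without Neutrophil array 1 (2.18), and its difference became 3.66 without KSL array 1. Klf6 measured 954 and 956 on the Neutrophil arrays and 453 and 55.9 on the KSL arrays, and its call (2.50 ± 0.67) was lost without KSL array 2 (1.06) while its difference became 3.94 without KSL array 1. Fosl2 kept its call throughout, at 2.95 ± 0.49 with all arrays and 1.65 without KSL array 2. Mxd1, a partner of Max, was steady between replicates and is described with the Myc genes.

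Stem and progenitor genes fell in 31 of 36 cases, against 27% of all genes, and the other 5 were not called. The list median was -3.38. Meis1, a homeobox partner of the Hox factors, measured 16.2 and 33.2 on the Neutrophil arrays, against 613 and 775 on the KSL arrays, a difference of -4.52 ± 0.39 (limma, adjusted p = 1.1e-08). Gata2, a factor that maintains stem cells, measured 29.1 and 40.7 on the Neutrophil arrays and 625 and 609.8 on the KSL arrays, a difference of -3.92 ± 0.35. Msi2, an RNA-binding protein gene of stem cells, measured 11 and 16.2 on the Neutrophil arrays, against 772 and 948 on the KSL arrays, a difference of -5.42 ± 0.23. Each of these genes was in double digits on both Neutrophil arrays and in triple digits on both KSL arrays. The cytokine receptor genes of progenitors were also lower. Kit, the receptor of stem cell factor, measured 121 and 175 on the Neutrophil arrays and 1204 and 1397 on the KSL arrays, a difference of -3.10 ± 0.36, and Flt3, the receptor of early lymphoid and myeloid progenitors, measured 10.4 and 34.1 on the Neutrophil arrays, against 651 and 1201 on the KSL arrays, a difference of -5.07 ± 0.57.

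Some regulators kept a clear level in Neutrophil. Myb, a factor of dividing progenitors, measured 397 and 495 on the Neutrophil arrays and 2497 and 2205 on the KSL arrays, a difference of -2.39 ± 0.21. Lmo2, an adaptor of the stem cell leukaemia complex, measured 833 and 846 on the Neutrophil arrays, against 2865 and 2726 on the KSL arrays, a difference of -1.73 ± 0.35. Both were lower without overlap but still in triple digits in Neutrophil. The 5 genes not called were Erg, Satb1, Hoxb4, Mecom and Prdm16. Erg, an ETS factor of stem cells, measured 526 and 657 on the Neutrophil arrays and 549 and 661 on the KSL arrays, a difference of -0.04 ± 0.35, and its arrays overlapped. Satb1, a chromatin organiser, measured 1001 and 1177 on the Neutrophil arrays, against 815 and 833 on the KSL arrays, a difference of 0.40 ± 0.21. Mecom and Prdm16 were in single or low double digits on all 4 arrays. Among the weakest falls, Robo4 lost its call without Neutrophil array 2 (-0.60), KSL array 1 (-1.18) or KSL array 2 (-1.34) and reached -1.92 without Neutrophil array 1. Hoxa10 lost its call without Neutrophil array 2 (-0.96) or KSL array 2 (-1.16), Hoxa5 without KSL array 1 (-1.19) and Lyl1 without KSL array 2 (-0.97).

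**Figure D3:**
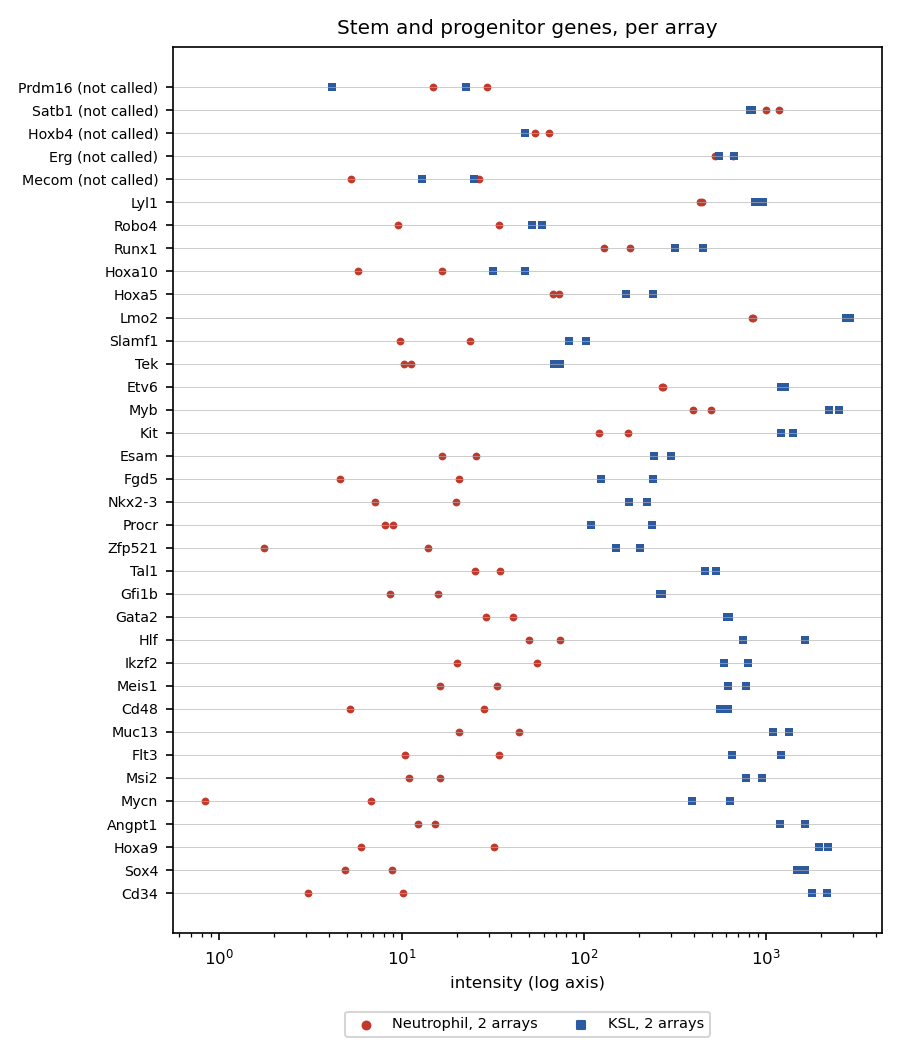
Intensity (log axis) of the 36 stem and progenitor genes on each of the 2 Neutrophil arrays (circles) and 2 KSL arrays (squares), ordered by the difference. From Lyl1 down to Cd34 the Neutrophil circles lie left of the KSL squares, and the 5 genes marked as not called are at the top.

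Genes of DNA replication were lower in 26 of 29 cases (median -3.12). All 6 subunit genes of the MCM helicase, which opens the replication fork, fell. Mcm2 measured 84.9 and 88 on the Neutrophil arrays and 1971 and 1795 on the KSL arrays, a difference of -4.34 ± 0.21 (limma, adjusted p = 5.5e-12). Mcm3 measured 50.8 and 53.5 on the Neutrophil arrays, against 1728 and 1408 on the KSL arrays, a difference of -4.73 ± 0.18. Mcm7 measured 343 and 504 on the Neutrophil arrays and 4613 and 4101 on the KSL arrays, a difference of -3.36 ± 0.18. The Neutrophil values were all far below those of KSL. Pcna, the sliding clamp of the polymerase, measured 439 and 689 on the Neutrophil arrays, against 3868 and 3329 on the KSL arrays, a difference of -2.69 ± 0.19, and Cdc6, which loads the helicase, measured 11.4 and 21.1 on the Neutrophil arrays and 334 and 325 on the KSL arrays, a difference of -3.90 ± 0.44. The genes not called were Rrm2, Gins4 and Cdc45. Rrm2, a subunit of ribonucleotide reductase, measured 405 and 1074 on the Neutrophil arrays, against 754 and 677 on the KSL arrays with overlapping arrays, while Rrm1, the other subunit of the enzyme, fell by 2.54 ± 0.21 on the log2 scale. Orc1, of the origin recognition complex, lost its call without Neutrophil array 1 (-1.07) or KSL array 1 (-1.0).

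Of 27 mitosis genes tested, 6 were lower and 21 were not called, a share lower that is near the 27% of all genes. The median was -0.41, and it was -0.09 without Neutrophil array 1 and -0.77 without Neutrophil array 2. Ube2c, which encodes the ubiquitin carrier of the anaphase-promoting complex, measured 258 and 493 on the Neutrophil arrays and 362 and 223 on the KSL arrays, a difference of 0.32 ± 0.37. Ccnb2, a B-type cyclin gene, measured 532 and 690.4 on the Neutrophil arrays, against 805 and 634 on the KSL arrays, a difference of -0.23 ± 0.31. Mki67, the proliferation marker Ki-67, measured 917 and 1503 on the Neutrophil arrays and 1854 and 1169 on the KSL arrays, a difference of -0.32 ± 0.39. In these 3 genes the arrays of the populations overlapped. The genes that fell were Top2a, Bub1b, Cdk1, Bub1, Aurkb and Mad2l1. Mad2l1, of the spindle checkpoint, measured 215 and 274 on the Neutrophil arrays, against 968 and 913 on the KSL arrays, a difference of -1.92 ± 0.20, and was called without any 1 of the 4 arrays. The count of 6 was 1 without Neutrophil array 1 and 2 without KSL array 1, and 8 at most. Neutrophil array 2 was above array 1 in 27 of 27 mitosis genes, by a median of 0.66, and KSL array 1 above array 2 in 26 of 27, by a median of 0.37. In replication genes Neutrophil array 2 was above array 1 in 27 of 29, by a median of 0.64. The mean log2 level of the mitosis list was 7.58 and 8.22 on the Neutrophil arrays, against 8.63 and 8.29 on the KSL arrays. That of the replication list was 6.01 and 6.79, against 9.21 and 9.10, so its populations stood apart by more than the replicates.

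Promoter windows are printed for cell cycle genes because E2F-type motifs (TTCCCGC) are known from replication genes and CHR-type motifs (TTTGAA) from mitosis genes. Both were searched on both strands of the same 250 bases, and capitals mark the match. Mcm7 (chr5:138171267-138171516, minus strand) shows the E2F-type motif. Ube2c (chr2:164769679-164769928, plus strand) and Ccnb2 (chr9:70421555-70421804, minus strand) show the CHR-type motif.
Mcm7: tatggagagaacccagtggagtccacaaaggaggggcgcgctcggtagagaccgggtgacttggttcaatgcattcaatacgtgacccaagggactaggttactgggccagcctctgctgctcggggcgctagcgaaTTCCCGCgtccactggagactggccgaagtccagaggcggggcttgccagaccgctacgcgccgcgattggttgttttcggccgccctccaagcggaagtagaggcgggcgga
Ube2c: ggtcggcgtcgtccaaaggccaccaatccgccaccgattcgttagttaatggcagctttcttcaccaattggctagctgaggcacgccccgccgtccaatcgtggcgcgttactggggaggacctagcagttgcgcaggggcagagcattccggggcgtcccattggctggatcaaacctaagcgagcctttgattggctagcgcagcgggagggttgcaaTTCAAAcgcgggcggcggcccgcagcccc
Ccnb2: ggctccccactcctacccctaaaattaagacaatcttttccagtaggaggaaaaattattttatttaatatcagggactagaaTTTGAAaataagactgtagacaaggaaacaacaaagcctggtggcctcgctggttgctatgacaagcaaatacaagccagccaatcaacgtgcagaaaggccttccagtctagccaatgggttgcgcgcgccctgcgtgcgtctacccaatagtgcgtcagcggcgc
The E2F-type motif was in 7 of 28 windows of replication genes (25%) and in 3.82% of all windows, and the CHR-type motif was in 9 of 24 windows of mitosis genes (37.5%) and in 16% of all windows. The replication windows with the E2F-type motif belonged to Mcm7, with 2 windows, and to Rpa2, Rrm1, Gins3, Cdc6 and Pola1. The windows of Mcm2, Mcm3 and Mcm5 held no E2F-type match, and those of the mitosis genes Plk1 and Aurka held no CHR-type match. The CHR-type motif was in 4 of 28 replication windows. The mitosis genes with a CHR-type match included Cdk1 and Top2a, which fell, and Ube2c, Cdc20, Ccnb2, Kif11, Prc1, Ncapg and Mki67, which were not called.

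**Figure D4:**
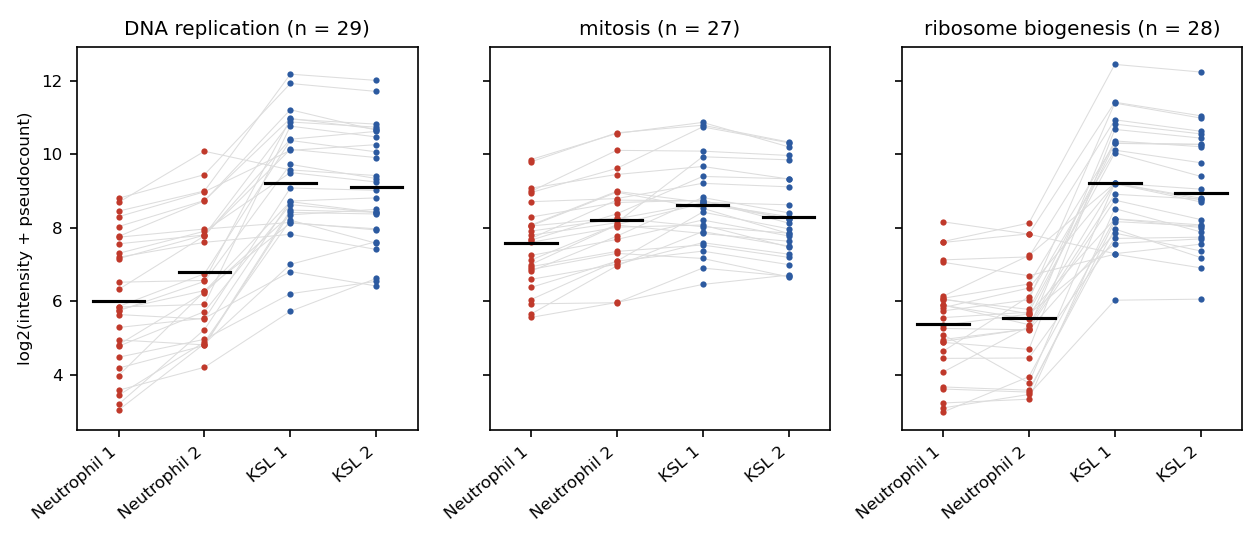
Log2(intensity + pseudocount) of each gene on the 2 Neutrophil and 2 KSL arrays for the replication, mitosis and ribosome biogenesis lists, with grey lines joining a gene's values and a black bar at the list mean. The means of the mitosis list lie between 7.58 and 8.63 on all 4 arrays, whereas those of the other lists differ by more than 2 between the populations.

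Ribosome biogenesis showed the lowest median of the 27 lists of pathways and functions, -3.98, with 26 of 28 genes lower. The call of each of the 26 did not depend on any 1 array. Npm1, which encodes nucleophosmin of the nucleolus, measured 190.2 and 273 on the Neutrophil arrays and 5548 and 4802 on the KSL arrays, a difference of -4.46 ± 0.23 (limma, adjusted p = 1.4e-11). Fbl, the methyltransferase fibrillarin, measured 46.7 and 59 on the Neutrophil arrays, against 2673 and 2013 on the KSL arrays, a difference of -5.30 ± 0.30. Tsr1, a factor of small subunit maturation, measured 22.7 and 19.1 on the Neutrophil arrays and 1624 and 1378 on the KSL arrays, a difference of -5.77 ± 0.31. KSL values exceeded Neutrophil values by a wide margin in each. Bysl and Polr1a were not called. Polr1a, the largest subunit of RNA polymerase I, measured 279 and 219.7 on the Neutrophil arrays, against 150.1 and 181 on the KSL arrays, a difference of 0.57 ± 0.28.

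Cytosolic ribosomal protein genes moved less, with 13 of 19 lower and a median of -1.21. Rps19 measured 636 and 697 on the Neutrophil arrays and 4477 and 4035 on the KSL arrays, a difference of -2.66 ± 0.14, and Rps14 measured 8366 and 7309 on the Neutrophil arrays, against 8575 and 6551 on the KSL arrays, a difference of 0.06 ± 0.18. Many names of this list had no probe set of their own, and probe sets of ribosomal proteins can bind transcripts of pseudogenes. Of 16 translation factor genes, 9 were lower and 2 were higher (median -1.23). Eif3b, a subunit of the initiation factor eIF3, measured 96.4 and 175 on the Neutrophil arrays and 1035 and 930.1 on the KSL arrays, a difference of -2.85 ± 0.22. Eif4ebp1, a repressor of cap-dependent initiation, was higher, with 1983 and 1671 on the Neutrophil arrays, against 596 and 556 on the KSL arrays and a difference of 1.65 ± 0.18.

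The Myc and Max network, which drives growth genes, held genes called in both directions: 4 of 12 genes were higher, 3 were lower and 5 were not called (median 0.06). The share lower is near the 27% of all genes, where 14.6% were higher. Leaving out 1 array moved the median between 0.01 (without Neutrophil array 2) and 0.16 (without KSL array 1). Myc measured 18.2 and 4.39 on the Neutrophil arrays and 1655 and 1121 on the KSL arrays, a difference of -6.36 ± 0.32 (limma, adjusted p = 1.4e-11). Mycn measured 0.837 and 6.76 on the Neutrophil arrays, against 388 and 634 on the KSL arrays, a difference of -5.64 ± 0.43. Mxd1, which competes with Myc for Max, measured 3496 and 3394 on the Neutrophil arrays and 117 and 119 on the KSL arrays, a difference of 4.79 ± 0.29. Myc and Mycn were thus low on both Neutrophil arrays and Mxd1 was high. Max itself, the common partner, measured 233 and 208 on the Neutrophil arrays, against 12.9 and 8.73 on the KSL arrays, a difference of 3.70 ± 0.43. The canonical E-box CACGTG, searched on both strands, was in 1 of 25 windows of ribosome biogenesis genes (4%) and in 6.02% of all windows.

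Energy metabolism genes split by pathway. Of 20 genes of glycolysis and glycogen, 12 were higher, 3 were lower and 5 were not called (median 1.32). Pygl, the phosphorylase that releases glucose from glycogen, measured 7019 and 6157 on the Neutrophil arrays and 364 and 358 on the KSL arrays, a difference of 4.16 ± 0.26. Slc2a3, a glucose transporter gene, measured 7082 and 6349.9 on the Neutrophil arrays, against 1015 and 1033 on the KSL arrays, a difference of 2.70 ± 0.16. Hk3, a hexokinase of myeloid cells, measured 5208 and 4219.8 on the Neutrophil arrays and 650.0 and 454 on the KSL arrays, a difference of 3.09 ± 0.45. Isoforms of phosphofructokinase went lower, with Pfkm at -2.37 ± 0.23 and Pfkl at -1.86 ± 0.23, while Pfkp was not called (0.36 ± 0.17). Aldoc also fell, but lost its call without Neutrophil array 2 (-0.75) or KSL array 2 (-1.05), while Slc2a1 rose but lost its call without KSL array 1 (0.97).

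In oxidative phosphorylation 8 of 25 genes were lower and 17 were not called (median -0.51), a share close to the 27% of all genes. After quantile normalization the median was -0.91. Ndufs3, of complex I, showed the largest fall, with 204 and 198 on the Neutrophil arrays, against 639 and 695 on the KSL arrays and a difference of -1.70 ± 0.17. Cox4i1, of complex IV, measured 5340.2 and 4903 on the Neutrophil arrays and 4528 and 3932 on the KSL arrays, a difference of 0.28 ± 0.13. Mitochondrial translation and citric acid cycle genes were lower in 14 of 19 cases (median -2.41). Hspe1 and Hspd1, the chaperonin pair of the mitochondrial matrix, fell by 5.40 ± 0.33 and 3.88 ± 0.24 on the log2 scale. Idh3a, of the citric acid cycle, measured 49.7 and 24.7 on the Neutrophil arrays, against 846 and 829.9 on the KSL arrays, a difference of -4.33 ± 0.23. Mdh2, of the same cycle, was not called, with 5463 and 5428 on the Neutrophil arrays and 3635 and 3189.5 on the KSL arrays.

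The neutrophil nucleus is lobed and its chromatin is condensed, so genes of the nuclear envelope and of chromatin were examined. Of 13 envelope genes, 5 were higher, 1 was lower and 7 were not called (median 0.04, between -0.01 without KSL array 2 and 0.11 without Neutrophil array 2). Lbr, the lamin B receptor whose loss leaves the nucleus unlobed, measured 4565 and 4674 on the Neutrophil arrays, against 1481 and 1214 on the KSL arrays, a difference of 1.78 ± 0.12 (limma, adjusted p = 7.2e-10). Syne1, a nesprin gene, measured 3122 and 2978 on the Neutrophil arrays and 57.2 and 93.3 on the KSL arrays, a difference of 5.26 ± 0.25, and Sun2, a partner of nesprins, measured 4730.0 and 4887 on the Neutrophil arrays, against 809.6 and 937 on the KSL arrays, a difference of 2.46 ± 0.15. Syne2 lost its call without Neutrophil array 2 (1.16) or KSL array 1 (0.82). The lamin gene Lmnb1 measured 279 and 362 on the Neutrophil arrays and 321 and 206 on the KSL arrays and was not called.

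Chromatin genes were mostly lower, with 11 of 20 lower, 3 higher and 6 not called (median -1.32). Dnmt3b, a de novo DNA methyltransferase, measured 18.4 and 14 on the Neutrophil arrays, against 976 and 1214 on the KSL arrays, a difference of -5.58 ± 0.29. Ezh2, the polycomb methyltransferase, measured 98.8 and 252 on the Neutrophil arrays and 1186 and 1059 on the KSL arrays, a difference of -2.77 ± 0.28. Padi4, which citrullinates histones when neutrophils release their chromatin, measured 3121 and 2924 on the Neutrophil arrays, against 218 and 231 on the KSL arrays, a difference of 3.71 ± 0.38. Padi4 thus rose where both methyltransferase genes fell. Ezh1, the homologue of Ezh2, measured 342 and 281 on the Neutrophil arrays and 68.5 and 235 on the KSL arrays. Its call (1.23 ± 0.35) was lost without Neutrophil array 1 (1.1) or KSL array 1 (0.39), and its difference was 2.07 without KSL array 2. Of 18 splicing genes 10 were lower and 8 were not called (median -1.05), and the largest fall was that of Hnrnpa1, with 142 and 165 on the Neutrophil arrays, against 1486 and 1648 on the KSL arrays.

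Among 12 genes of the BCL2 family, 2 were higher, 1 was lower and 9 were not called (median 0.45, and 0.21 without KSL array 2). These shares are near or below the 14.6% higher and 27% lower of all genes. Mcl1, on which neutrophil survival depends, measured 6331 and 6005 on the Neutrophil arrays and 2514 and 1837 on the KSL arrays, a difference of 1.52 ± 0.16 (limma, adjusted p = 1.1e-07). Bcl2, the founding survival gene, measured 1.45 and 18.6 on the Neutrophil arrays, against 431 and 465 on the KSL arrays, a difference of -4.98 ± 0.44. These genes of like function moved in opposite directions without overlap. Bmf, which encodes a killer protein of the family, rose by 1.16 ± 0.41, and its call was lost without Neutrophil array 1 (1.08), Neutrophil array 2 (1.24) or KSL array 1 (0.60).

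Lysosome and autophagy genes were higher in 12 of 22 cases and lower in 2 (median 1.17). Ctsh, which encodes cathepsin H, measured 1398 and 1233 on the Neutrophil arrays and 46.7 and 41.6 on the KSL arrays, a difference of 4.70 ± 0.46. Atg3 and Atg7, enzymes of LC3 conjugation, rose by 2.83 ± 0.18 and 2.09 ± 0.26. Gabarapl1, an LC3 relative, was lower, with 83.3 and 62.4 on the Neutrophil arrays, against 571 and 448 on the KSL arrays and a difference of -2.70 ± 0.25. Hexa, a lysosomal hexosaminidase gene, lost its call without KSL array 2 (0.91). Of 15 cholesterol synthesis genes 4 were higher, 4 were lower and 7 were not called, and the share lower is near the 27% of all genes. The median was 0.11, with a range from -0.01 without KSL array 1 to 0.22 without KSL array 2. Dhcr7, which makes cholesterol in the last step, measured 4.7 and 24 on the Neutrophil arrays and 124 and 156 on the KSL arrays, a difference of -2.96 ± 0.45, and Hsd17b7, an earlier enzyme, measured 274 and 380.4 on the Neutrophil arrays, against 78.6 and 117 on the KSL arrays, a difference of 1.68 ± 0.30.

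Interferon response genes were higher in 10 of 18 cases and lower in 1 (median 1.13). Ifitm6, an interferon-induced membrane protein gene, measured 9992 and 8794 on the Neutrophil arrays and 35.1 and 20.7 on the KSL arrays, a difference of 8.11 ± 0.52. Rsad2, which encodes the antiviral enzyme viperin, measured 2565 and 1970.3 on the Neutrophil arrays, against 520.2 and 455 on the KSL arrays, a difference of 2.19 ± 0.33. Ifit1 lost its call without Neutrophil array 1 (0.63) or KSL array 2 (0.82), and Bst2, which fell, lost its call without KSL array 1 (-1.10).

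Cytokine genes were higher in 7 of 16 cases, lower in 2 and not called in 7 (median 0.64). Of all genes 14.6% were higher and 27% lower, so the share of cytokine genes lower is below that of all genes. The median was 0.20 without KSL array 2 and 1.37 without KSL array 1. Cxcl2, a chemokine that draws neutrophils, measured 3492 and 5906 on the Neutrophil arrays and 59.4 and 7.7 on the KSL arrays, a difference of 7.20 ± 0.64 (limma, adjusted p = 1.9e-08). Il1b, the proinflammatory interleukin, measured 2278 and 1805 on the Neutrophil arrays, against 27.4 and 17.3 on the KSL arrays, a difference of 6.15 ± 0.41. Ccl3, a macrophage chemokine gene, measured 188 and 189.7 on the Neutrophil arrays and 1081 and 75.6 on the KSL arrays and was not called. The KSL arrays of Ccl3 lay on either side of the Neutrophil arrays. Tgfb1, a growth inhibitor, fell but lost its call without KSL array 1 (-0.84).

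Of 12 genes of leukotriene and prostaglandin synthesis, 5 were higher, 1 was lower and 6 were not called (median 0.91). Alox5, the 5-lipoxygenase that begins leukotriene synthesis, measured 2297 and 2034 on the Neutrophil arrays, against 62.2 and 14.5 on the KSL arrays, a difference of 5.82 ± 0.46. Lta4h, which makes leukotriene B4, measured 6405 and 5947 on the Neutrophil arrays and 1334 and 1304 on the KSL arrays, a difference of 2.22 ± 0.14, while Ltc4s, which makes leukotriene C4, measured 4.73 and 3.74 on the Neutrophil arrays, against 65.4 and 60.8 on the KSL arrays, a difference of -2.67 ± 0.58. The enzymes of the B4 and C4 branches thus went opposite ways. Ptgs2, the inducible cyclooxygenase, measured 477 and 442 on the Neutrophil arrays and 75.3 and 0.486 on the KSL arrays, and its difference of 4.26 ± 0.77 became 2.50 without KSL array 2.

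**Figure D5:**
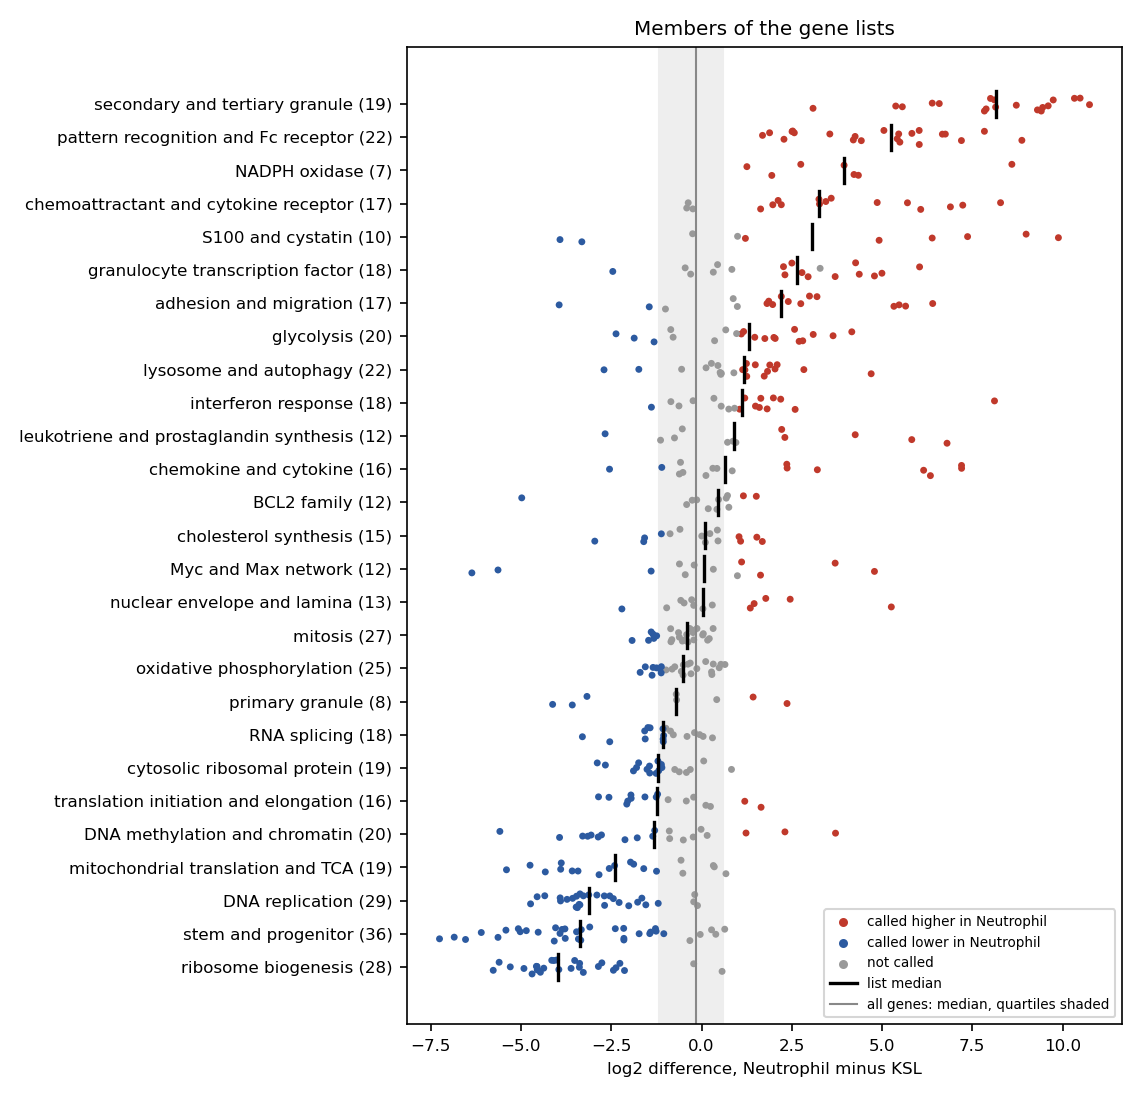
Log2 difference (Neutrophil minus KSL) of the members of 27 gene lists, 1 point per gene, with the number tested in brackets, a black bar at the list median, and the quartiles (-1.17 and 0.60) and median (-0.16) of all genes in grey. Medians run from 8.14 for secondary and tertiary granules to -3.98 for ribosome biogenesis, and the mitosis median of -0.41 lies within the grey band.

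Monocyte arrays (Mac-1-positive cells, called monocytes/macrophages by the labels) were set beside the Neutrophil arrays to see which values set the granulocyte apart from another myeloid population. This contrast, like the one with lymphoid cells, uses the same Neutrophil arrays as the comparison with KSL. Mac-1 is carried by neutrophils as well as monocytes, and the Monocyte arrays held granule transcripts at high values. Neutrophil arrays correlated with Monocyte arrays at r = 0.901 to 0.931. Of all genes 1691 were called (12%), 363 higher in Neutrophil (2.58%) and 1328 lower (9.46%), and the higher count was 178 without Neutrophil array 1. Of the 19 secondary and tertiary granule genes, 3 were higher, 1 was lower and 15 were not called. Camp averaged 12205 ± 1795 in Neutrophil and 10821 ± 1566 in Monocyte (SD, n = 2 each), a difference of 0.17 ± 0.99 (limma, adjusted p = 0.94). The 3 higher were Ceacam10, Adam8 and Slpi, and Ceacam10, an adhesion molecule gene, averaged 2633 ± 394 in Neutrophil and 682 ± 159 in Monocyte, a difference of 1.95 ± 0.46. Fcnb, the lectin ficolin B of early granules, averaged 1079.7 ± 355 in Neutrophil and 4267 ± 1202 in Monocyte and was lower by 1.99 ± 0.52 on the log2 scale. The 15 genes not called missed the threshold for the adjusted p, the difference of 1 or both. The standard error was pooled over the arrays of all 10 populations, so it is not the spread of the Neutrophil and Monocyte arrays alone.

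Primary granule genes were lower in Neutrophil than in Monocyte in 6 of 8 cases. Elane averaged 133 ± 141 in Neutrophil and 2675 ± 172 in Monocyte, a difference of -4.77 ± 0.77 (limma, adjusted p = 0.00023). Of 17 chemoattractant and cytokine receptor genes, 4 were higher than in Monocyte, 1 was lower and 12 were not called. In the pattern recognition and Fc receptor list 5 of 22 were higher and 17 were not called. All 7 NADPH oxidase genes were not called. Of 18 transcription factor genes, 3 were higher, 1 was lower and 14 were not called. Of all genes 2.58% were higher and 9.46% lower. Among receptors, Cxcr2 averaged 1479 ± 255 in Neutrophil and 449 ± 213 in Monocyte, higher by 1.78 ± 0.39, and Clec4d, a C-type lectin receptor gene, was higher by 2.27 ± 0.40. DNA replication genes were lower in 27 of 29 cases (median -2.15) and mitosis genes in 18 of 27 (median -1.18). Mki67 averaged 1209.8 ± 415 in Neutrophil and 3555 ± 285 in Monocyte, a difference of -1.59 ± 0.39. Replication, mitosis and primary granule genes thus had lower levels in Neutrophil than in Monocyte. Of 36 stem genes, 1 was higher, 1 was lower and 34 were not called between Neutrophil and Monocyte. Only 12% of all genes were called in this contrast, so a gene not called is the usual case.

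Monocyte and macrophage markers gave a further check of the label. In Neutrophil 12 of 16 were lower than in Monocyte (median -2.61), and their summed intensity was 4349 and 3340 on the Neutrophil arrays, 11200 and 18933 on the Monocyte arrays, and 2084 and 1160 on the KSL arrays. Against KSL 3 of the 16 were higher (Csf1r, Adgre1 and Cd68), 1 was lower and 12 were not called. The share higher is near the 14.6% of all genes, and 27% of all genes were lower. Csf1r, the receptor of macrophage growth factor, measured 2702 and 1854 on the Neutrophil arrays, against 601 and 233 on the KSL arrays, a difference of 2.56 ± 0.53. C1qa and C1qc, complement genes of macrophages, were in single digits on both Neutrophil arrays and on both KSL arrays. The part of monocytes in the Neutrophil values was not tested.

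Against the mean of 5 lymphoid populations (B, NK and NKT cells and CD4 and CD8 T cells), 4911 genes were called (35%), 1853 higher in Neutrophil (13.2%) and 3058 lower (21.8%). All 19 secondary and tertiary granule genes were higher, with a median of 7.51. Mitosis genes were higher in 24 of 27 cases (median 1.72), whereas replication genes were lower in 19 of 29 and higher in 2. Ccnb2 averaged 611 ± 112 in Neutrophil and 152 over the lymphoid populations, a difference of 2.03 ± 0.24 (limma, adjusted p = 5.8e-07). Mcm3 averaged 52.2 ± 1.93 in Neutrophil and 387 over the lymphoid populations, a difference of -2.70 ± 0.14. Ribosome biogenesis genes were lower in 26 of 28 cases (median -3.01). The spread among the 5 lymphoid populations does not enter the standard errors or p-values of this contrast. These populations were not alike: NK arrays correlated with Neutrophil arrays at 0.768 to 0.786 and CD8 T arrays at 0.650 to 0.672.

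The counts of this paragraph pass over uncharacterised symbols, such as those of clones and predicted genes. Among the other genes tested, Neutrophil values exceeded those of the other 18 arrays for 1116 genes, and for 83 of these the gap was at least 1 on the log2 scale. KSL values exceeded all others for 693 genes, 80 of them by that gap. These counts are out of fewer than the 14044 genes tested. In the other populations the count by that gap ran from 3 in Monocyte to 672 in Erythroblast, with 127 in B cells and 80 in NK cells. The Neutrophil and KSL counts thus do not mark these populations out. These genes were picked by the gap itself, so the gaps are a description. The widest Neutrophil gap was that of Ifit1bl2, an interferon-induced gene, which measured 1664 and 1036 on the Neutrophil arrays and 1.23 and 19.3 on the KSL arrays, and the gap to the highest other array, of Monocyte, was 3.45. Upp1, which encodes uridine phosphorylase, measured 1928 and 1454 on the Neutrophil arrays, against 80.8 and 112 on the KSL arrays, with a gap of 2.68. The stefin genes Stfa2l1 and Stfa3 followed with gaps of 2.52 and 2.10. Asprv1, an aspartic protease gene, measured 2059 and 1657 on the Neutrophil arrays and 21.2 and 11.2 on the KSL arrays, and Bst1, an ADP-ribosyl cyclase gene of myeloid cells, measured 1299 and 894 on the Neutrophil arrays, against 8.08 and 0.734 on the KSL arrays. On the KSL side the widest gaps were those of Dntt (2.63), the lipoprotein receptor gene Vldlr (2.35), Hoxb5os (2.17) and Esam (2.09), an adhesion molecule of stem cells. Vldlr measured 28.7 and 2.1 on the Neutrophil arrays and 366 and 588 on the KSL arrays, and Esam measured 25.7 and 16.6 on the Neutrophil arrays, against 242 and 301 on the KSL arrays.

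Markers of other lineages were low on the Neutrophil arrays. Their counts are read against the 14.6% higher and 27% lower of all genes. Of 8 B cell markers 2 were higher (Ms4a1 and Cd79a), 1 was lower and 5 were not called. Both rises were lost without Neutrophil array 1, at 1.07 for Ms4a1 and 1.13 for Cd79a, and that of Ms4a1 also without KSL array 2 (1.21) and that of Cd79a without KSL array 1 (1.01). Summed B cell markers were 252 and 180 on the Neutrophil arrays and 234 and 225 on the KSL arrays. Summed T and NK markers were 318 and 380, against 838 and 750, with 4 of 12 lower, and summed erythroid markers were 320 and 416, against 3464 and 3383. The erythroid sum of KSL was mostly Car2, a carbonic anhydrase gene also known from progenitors, with 67.7 and 92.6 on the Neutrophil arrays and 2926 and 3208 on the KSL arrays. Of 12 T and NK markers 1 was higher in Neutrophil, Cd3d, with 157 and 165 on the Neutrophil arrays, against 3.48 and 1 on the KSL arrays, whereas Cd3e, of the same receptor complex, measured 9.87 and 10.7 on the Neutrophil arrays and 16.3 and 5.18 on the KSL arrays and was not called. Alas2, an enzyme of haem synthesis, was the erythroid marker called higher, with 79.8 and 50.3 on the Neutrophil arrays, against 1.76 and 0.996 on the KSL arrays, and 3 of 10 were lower. Megakaryocyte markers were lower in 5 of 7 cases, with sums of 184 and 212, against 1845 and 1106. Markers of eosinophils, basophils and mast cells summed to 158 and 173, against 491 and 248, with 1 of 8 lower (Cpa3), and those of dendritic and plasma cells to 170.2 and 169.6, against 747 and 1313, with 1 of 8 lower (Flt3). The KSL sum of the dendritic and plasma cell list was mostly Flt3, which is also among the KSL markers above.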

How the data were processed

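The deposited values are probe set intensities, 1 table for all 20 arrays. How the authors summarised and scaled them is not given in the sources used here, and the deposited intensity values are on a linear scale, as their range shows. Each deposited array already had a mean of 100 after leaving out 2% of values at either end. No further scaling was done, and log2(intensity + 6.75) was taken from the deposited intensities. Of 45101 probe sets, 34945 were annotated to a single symbol, 932 to several and 9160 to no gene, and 64 were controls. The probe set with the highest mean stood for a gene, and genes whose highest population mean did not exceed the median of all log2 values (4.89) were left out, which left 14044 of 18193 genes. All 20 arrays entered 1 limma fit (version 3.58.1, R 4.3.3; lmFit and eBayes with trend) with 10 populations and no covariate. P-values were two-sided and adjusted by Benjamini-Hochberg over the genes tested. The fit was tested on simulated data. Of 100 genes changed by 1.5 on the log2 scale 57 were called in the right direction, and of 100 changed by 3, 90 were. There were 7 false calls. Far fewer genes were changed there than were called in the data, so these rates need not hold here. A gene not called can thus still differ. Array number limits the precision: with 2 arrays against 2, an exact permutation test cannot go below p = 0.333, so only the fit across all genes was used.

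Named genes were the 12 largest called rises and falls, the 6 widest gaps of each population over all other arrays, and members of 36 lists (630 names, 565 with a probe set of their own, 556 tested) chosen for their role. Uncharacterised symbols, such as those of clones and predicted genes, were passed over for the rises, falls and gaps. The members and lists were chosen with earlier results of these data known. Alternatives changed the scaling, the constant, the choice of probe set, the test, the arrays in the fit and each array left out. Promoter windows came from RefSeq annotation of GRCm38.p6.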

Additional observations from a re-analysis of the deposited data

How the results depend on the processing

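The count of 5832 genes called lay between 4888 and 5942 under every alternative run other than a test against a difference of 1 (limma's treat), which called 3200 genes (1053 higher, 2147 lower). Treat called 205 genes against Monocyte (7 higher, 198 lower) and 2770 against lymphoid cells (1052 higher, 1718 lower). It left 1 mitosis, 8 ribosomal protein, 3 oxidative phosphorylation, 5 splicing and 2 megakaryocyte genes lower, and 3 nuclear envelope, 7 lysosome and 4 interferon genes higher. Array median centring left 6 splicing genes lower. Leaving out 1 array gave 5315 to 5612 calls, 178 to 361 higher against Monocyte, and 1 to 8 mitosis genes lower. Of 375 named or listed genes called, none changed direction under any alternative run. Quantile normalization moved the median of all genes by 0.12. The labels do not say whether the replicate numbers pair the arrays. No shared deviation was seen between Neutrophil and KSL replicates (r = 0.002), which does not show that they were unpaired. Over all pairs of populations the deviations correlated at -0.094 to 0.206, the highest being that of LinNeg with KSL. A replicate block gave 5828 calls. The causes of these shifts were not tested. With 2 arrays per population and no detection calls, low intensities stay uncertain.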

Other observations

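The genes below were picked after their values were seen, for differing most between replicates. On KSL array 1 a group of early response genes was far above KSL array 2: Fos measured 5896 and 80.3, Jun 896 and 21.0, Nr4a1 1581 and 42.1, and Egr1 3606 and 233. Klf2 measured 427 and 14.3 on these arrays, Zfp36 1623 and 83.2, and Nr4a2 263 and 10.3. The chemokine gene Ccl3 measured 1081 and 75.6, the carbonic anhydrase gene Car1 793 and 38.9, and the metallothionein gene Mt2 336 and 19.8. The Neutrophil arrays differed in other genes. Mpo measured 69.5 on Neutrophil array 1 and 502 on array 2, and Elane 33.6 and 233. Timeless, a replication fork gene, measured 1.58 and 60.3, and Pole3, a subunit of DNA polymerase epsilon, 6.88 and 88.2. Hemgn, an erythroid and progenitor gene, measured 13.4 and 112, and Klrd1, an NK receptor gene, 1.89 and 43.5. Dnhd1 went the other way, with 45.0 on array 1 and 1.96 on array 2.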
